A study of Mus musculus with 12 samples.

Results

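Mitosis is driven by genes whose transcripts accumulate in G2 and M phase, and 10 of them were followed in the newborn mouse bladder: Cdk1, Ccnb1, Ccnb2, Aurka, Tpx2, Bub1, Aurkb, Top2a, Mki67 and Racgap1. Members were taken as the array's probe sets whose only gene symbol in the platform annotation is one of these names. Of the 45037 probe sets other than controls, 19 met that rule, and they covered 9 of the 10 genes, among 18194 genes named on the array in this way; no value is given for Ccnb1. Of the 19 probe sets, 13 had a mean above the median of all probe sets and were tested among 22518, and the brightest probe set of each gene, which passed for all 9 genes, stands for it below.

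The tissue was the whole bladder of postnatal day 1 mice of strain FVB/N, all labelled male, and each of the 12 one-colour Affymetrix arrays carried 1 sample that was not pooled. The SMGA/EGFP group (3 arrays) carried a transgene in which the promoter of the smooth muscle gamma actin gene, Actg2, drives a green fluorescent protein, and the SMAA/EYFP group (3 arrays) one in which the promoter of the smooth muscle alpha actin gene, Acta2, drives a yellow fluorescent protein. Wild-type bladders filled 6 arrays. Transgenic males were mated to FVB/N females, so sire, litter and genotype cannot be told apart, and p-values measure only the spread between these samples. The submitters asked what the transgenes do to expression in the bladder. The record numbers run SMGA/EGFP 1 to 3, wild type 1 to 3, SMAA/EYFP 1 to 3, wild type 4 to 6, so a first and a second run of 6 record numbers each hold 3 transgenic and 3 wild-type arrays; the labels name no batch.

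Uroplakins and smooth muscle genes were bright on every array, with deposited intensities of 27581 to 43169 for Upk3a and 49633 to 64322 for Myh11. Median intensity ran from 229 to 306, and correlations between arrays ran from 0.9533 to 0.9705 within groups and from 0.9485 to 0.9736 between groups. Wild type 4 went against its label: Xist, expressed from the inactive X chromosome, read 29604 there and 80.1 to 250.4 on the other 11 arrays, and the Y-linked Eif2s3y read 26.7 against 3284 to 5096.

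Entry into mitosis requires the kinase Cdk1 bound to a B-type cyclin, after which Aurora A and its activator Tpx2 build the spindle, Bub1 and Aurora B watch over and correct the attachment of chromosomes, and centralspindlin, which contains Racgap1, organises cytokinesis. Top2a untangles sister chromatids, and Ki-67, the product of Mki67, coats mitotic chromosomes and is the standard marker of cycling cells. The genes share a mode of control, in which factors that bind CCAAT boxes and cell cycle homology elements (CHR) near the start site hold transcription down in resting and early cycling cells and raise it in G2. Cell division is brisk in many newborn tissues and largely ceases in the adult bladder. In RNA from whole bladder, fewer dividing cells and less RNA per dividing cell cannot be told apart.

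Promoters are shown for members with array values whose 100 bases before the start lay wholly or nearly wholly outside the gene's annotated span. Mki67 and Aurka, whose starts lie further inside their spans, and Ccnb1 are not shown but are in the counts below. RefSeq's promoter table (GRCm38.p6, the C57BL/6J reference, not FVB/N) held 8 of the 10 genes. The sequences below end at or just before the gene's annotated start, are written 5′ to 3′ on the gene's own (minus) strand, and have capitals at CCAAT or its reverse complement ATTGG and at the CHR letters TTTGAA (reverse complement TTCAAA) or TTCGAA.
Cdk1, chr10:69352913-69353012: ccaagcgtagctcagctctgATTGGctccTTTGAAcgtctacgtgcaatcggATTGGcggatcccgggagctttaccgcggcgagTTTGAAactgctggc
Ccnb2, chr9:70421555-70421654: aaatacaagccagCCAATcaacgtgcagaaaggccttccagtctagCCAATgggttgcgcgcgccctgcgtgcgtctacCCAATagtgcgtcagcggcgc
Bub1, chr2:127831860-127831959: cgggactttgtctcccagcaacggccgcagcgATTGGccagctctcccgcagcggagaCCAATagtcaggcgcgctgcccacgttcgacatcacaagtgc
Top2a, chr11:99024200-99024289: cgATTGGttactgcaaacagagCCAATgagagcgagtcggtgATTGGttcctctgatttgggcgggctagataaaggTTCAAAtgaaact
Racgap1, chr15:99651657-99651756: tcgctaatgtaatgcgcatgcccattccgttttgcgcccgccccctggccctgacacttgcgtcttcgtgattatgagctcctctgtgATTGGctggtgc

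Within 250 bases before the start, CCAAT on either strand was present in 8 of the 8 member promoters, against 33.8% of the 32851 promoters in the table. It stood at 2 or more places in 7 of the 8, all but Racgap1, against 10.1%. In Ccnb2 the 3 copies lie 33 and 33 bases apart, and 2 of the copies in Cdk1, Ccnb1 and Aurka lie 32 bases apart. Other neighbouring copies lie 128 bases apart in Cdk1, 20 to 51 in Top2a, 22 and 25 in Mki67 and 26 in Bub1. The share of such spacings over all promoters was not counted. In the same 250 bases, TTTGAA or TTCGAA on either strand was found in 4 of the 8, Cdk1, Ccnb2, Top2a and Mki67, against 17.1%. With the 50 bases after the start added, it was found in 7 of the 8, all but Ccnb1, against 19.2%. These are matches of letters and not measured binding sites.

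All 9 genes were clearly expressed in the newborn bladder, and none passed the test in any comparison between groups. What stood out was the SMGA/EGFP group itself: its arrays 1 and 2 held low values and its array 3 high ones for nearly every member, while the wild-type and SMAA/EYFP arrays lay close together. Values below are log2 of the deposited intensity plus 16 after quantile normalization, so 1 unit is a doubling; differences carry limma's standard error (SE), and adjusted p is by Benjamini-Hochberg over all 22518 probe sets.

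Cdk1, the kinase that starts mitosis, read 12.30, 12.36 and 13.11 in SMGA/EGFP 1, 2 and 3. The wild-type arrays 1 to 6 read 12.91, 12.41, 12.71, 12.65, 12.65 and 12.97, and SMAA/EYFP 1 to 3 read 12.96, 12.62 and 12.82. The first pair thus lay below every wild-type array, and SMGA/EGFP 3 above every one. The SMGA/EGFP mean of 12.59 ± 0.45 (SD, n = 3) differed from the wild-type mean of 12.72 ± 0.20 (SD, n = 6) by -0.13 ± 0.17 (limma, adjusted p = 0.872).

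Ccnb2, a B-type cyclin that activates Cdk1, read 11.66, 11.24 and 12.31 in SMGA/EGFP, with array 2 at 55.7% of the wild-type mean and array 3 at 117%. Wild type 1 to 3 read 11.94, 11.93 and 11.93, wild type 4 to 6 read 12.20, 12.22 and 12.27, and SMAA/EYFP read 12.05, 11.91 and 11.81. The wild-type arrays therefore formed a lower and a higher set by run of record numbers, and SMGA/EGFP 3 stood just above the higher one. The difference of SMGA/EGFP from wild type was -0.35 ± 0.18 (limma, adjusted p = 0.732).

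Among the spindle genes, Tpx2, which activates Aurora A and recruits it to spindle microtubules, showed the greatest difference between SMGA/EGFP and wild type of the 9. It read 10.19, 10.01 and 11.22 in SMGA/EGFP, 10.94, 10.75, 10.89, 10.95, 11.16 and 11.22 in wild type, and 10.82, 10.75 and 10.80 in SMAA/EYFP. On SMGA/EGFP 1 and 2 it was at 57.5% and 50.8% of the wild-type mean, while on SMGA/EGFP 3 it was level with the highest wild-type array. The means were 10.47 ± 0.65 (SD, n = 3) and 10.98 ± 0.17 (SD, n = 6), a difference of -0.51 ± 0.21, or 0.701-fold, with an unadjusted p of 0.0289 and an adjusted p of 0.712 in limma. The 95% confidence interval ran from -0.97 to -0.06 before any adjustment.

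A second Tpx2 probe set read 9.06, 9.32 and 9.72 in SMGA/EGFP against 9.57 to 10.47 in wild type, a difference of -0.65 ± 0.20 (limma, adjusted p = 0.668). There SMGA/EGFP 3 lay within the lower part of the wild-type range, so the 2 probe sets differ on that array. Another 2 Tpx2 probe sets had means under the filter and were not tested.

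Aurka encodes Aurora A, the kinase of centrosomes and spindle poles, and it was the member that followed the others least. It read 10.42, 10.27 and 10.89 in SMGA/EGFP, 10.42, 10.16, 10.27, 10.38, 10.50 and 10.71 in wild type, and 10.67, 10.39 and 10.53 in SMAA/EYFP. Only SMGA/EGFP 3 lay outside the wild-type range. Its difference from wild type was 0.12 ± 0.15 in SMGA/EGFP (limma, adjusted p = 0.865), with a 95% confidence interval from -0.21 to 0.45.

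Of the genes that guard chromosome attachment, Bub1, a kinase of the spindle checkpoint, was the most uneven within SMGA/EGFP, at 10.61, 10.62 and 11.80. The wild-type arrays read 11.23, 11.15, 11.19, 11.20, 11.34 and 11.38, and the SMAA/EYFP arrays 11.18, 11.29 and 11.35. Relative to the wild-type mean, SMGA/EGFP 1, 2 and 3 were at 64.2%, 64.6% and 147%, so a mean over them hides values on both sides of all 6 wild-type arrays. The SD was 0.69 in SMGA/EGFP, 0.09 in wild type and 0.09 in SMAA/EYFP, and the difference of SMGA/EGFP from wild type was -0.24 ± 0.21 (limma, adjusted p = 0.811).

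Aurkb, the Aurora kinase of the chromosomal passenger complex, read 10.30, 10.03 and 10.94 in SMGA/EGFP, 10.30 to 10.79 in wild type with a median of 10.43, and 10.59, 10.53 and 10.48 in SMAA/EYFP. The first SMGA/EGFP array was level with, and just under, the lowest wild-type array, the second lay below and the third above all wild-type arrays. The difference of SMGA/EGFP from wild type was -0.06 ± 0.18 (limma, adjusted p = 0.958), and a second, dimmer probe set gave -0.05 ± 0.22. That probe set read 9.29, 9.38 and 9.94 in SMGA/EGFP, all inside the wild-type range of 9.03 to 9.95.

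Top2a, the topoisomerase that decatenates sister chromatids, read 12.37, 12.26 and 13.21 in SMGA/EGFP. Wild type ran from 12.62 to 12.94 with a median of 12.78, and SMAA/EYFP read 12.78, 12.72 and 12.87. Arrays 1 and 2 of SMGA/EGFP were thus below, and array 3 above, all of the other 9 arrays. The difference of SMGA/EGFP from wild type was -0.15 ± 0.16 (limma, adjusted p = 0.847). A second, dimmer Top2a probe set read 8.68, 8.48 and 9.34 in SMGA/EGFP against 8.49 to 9.01 in wild type. There array 1 lay inside the wild-type range, and the difference was 0.05 ± 0.20 (limma, adjusted p = 0.963).

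Mki67, the proliferation marker, was 13.15, 12.84 and 13.68 in SMGA/EGFP, against 13.32 to 13.52 in wild type (median 13.48) and 13.29, 13.24 and 13.41 in SMAA/EYFP. It had the narrowest spread of the members over wild-type arrays, with an SD of 0.07, against 0.42 in SMGA/EGFP. The difference of SMGA/EGFP from wild type was -0.23 ± 0.13 (limma, adjusted p = 0.747).

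Racgap1, the GTPase-activating subunit of centralspindlin, read 11.34, 11.32 and 11.97 in SMGA/EGFP, 11.83, 11.73, 11.80, 11.96, 11.94 and 12.05 in wild type, and 11.87, 11.71 and 11.88 in SMAA/EYFP. SMGA/EGFP 1 and 2 were at 68.6% and 67.6% of the wild-type mean, and SMGA/EGFP 3 was inside the wild-type range. The difference was -0.34 ± 0.14, with an unadjusted p of 0.0263 and an adjusted p of 0.712 in limma. A second probe set also had array 3 highest of the SMGA/EGFP arrays, at 10.14, 10.54 and 11.14, with arrays 1 and 2 in the other order and a difference of -0.41 ± 0.20.

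**Figure D1:**
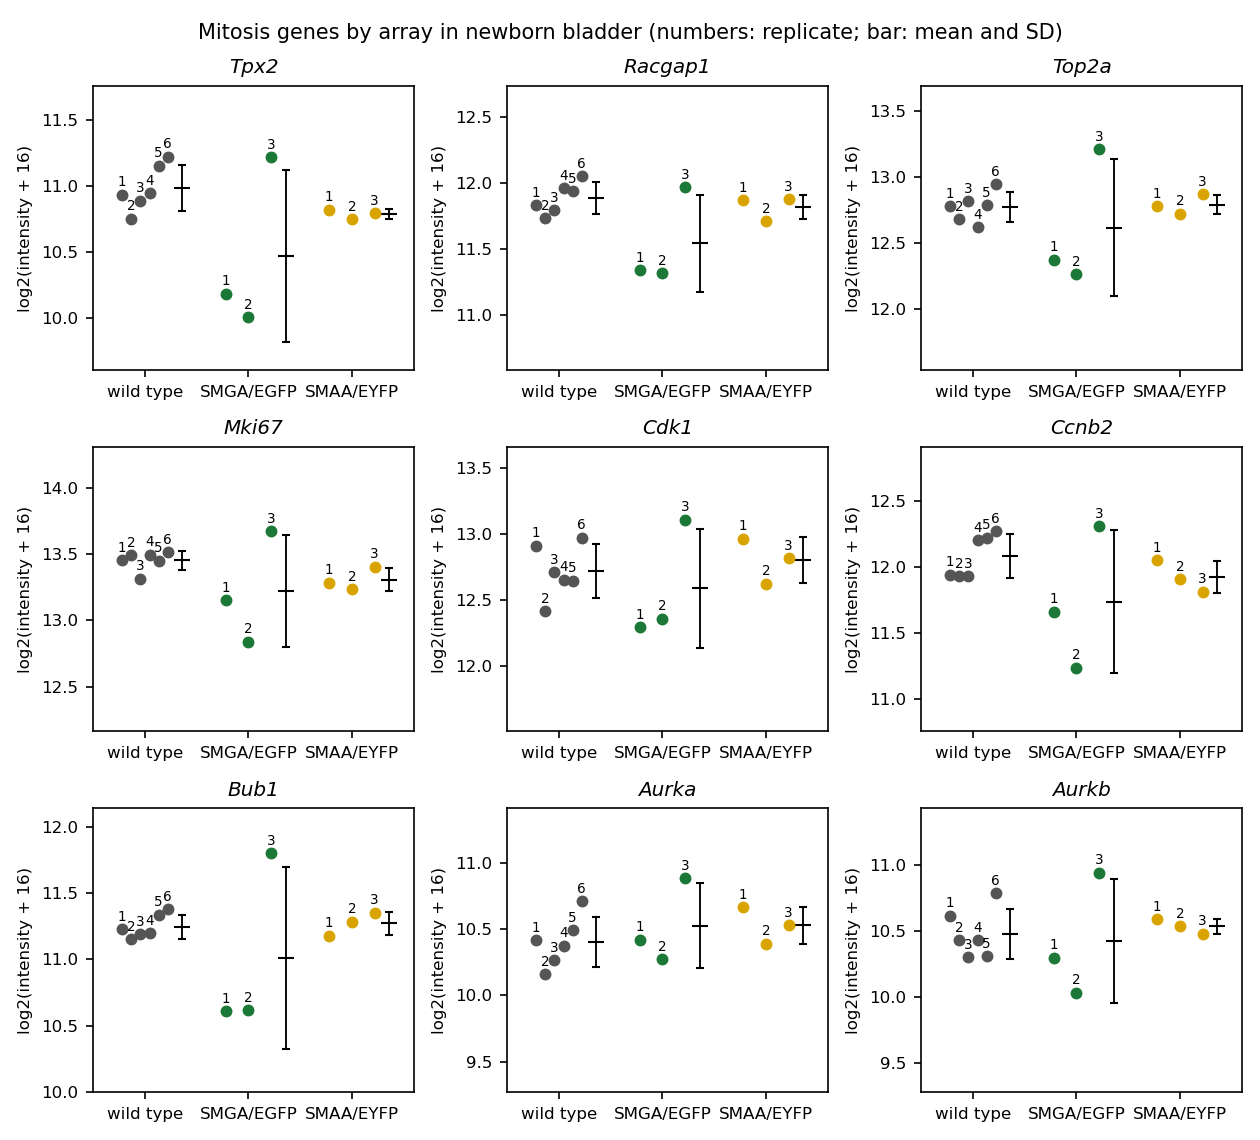
Log2(intensity + 16) after quantile normalization (y axis) of the 9 members in wild-type (grey, n = 6), SMGA/EGFP (green, n = 3) and SMAA/EYFP (gold, n = 3) bladders; each point is an array with its replicate number, and the bar is the mean with its SD. SMGA/EGFP 1 and 2 lie below the wild-type points in 8 of the 9 genes, and SMGA/EGFP 3 above them in 7.

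Set against wild type, the SMGA/EGFP group had 0 of 9 members past the adjusted threshold of 0.05, where 0.0622% of all probe sets passed. At an unadjusted p under 0.05 there were 2, Tpx2 and Racgap1, both lower, beside 4.16% of all probe sets that were lower at that level. The estimate was lower in 8 of 9 members, against 52.9% of all probe sets, with a median of -0.23 over the members and -0.01 over all probe sets. That median rests on single arrays: it was -0.46 without SMGA/EGFP 3, -0.04 without SMGA/EGFP 1 and -0.04 without SMGA/EGFP 2. Without SMGA/EGFP 3, Tpx2 passed the test at -0.89 ± 0.14 (limma, adjusted p = 0.0404), and with arrays weighted by limma for quality the median turned to 0.13. Leaving out wild type 4, whose sex label is in doubt, gave a median of -0.22. Against the wild-type arrays of the first run alone it was -0.18.

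The SMAA/EYFP group had 0 of 9 members past the threshold against wild type, where 0.00% of all probe sets passed, and 0 at an unadjusted p under 0.05, beside 4.81% of all probe sets. The estimate was lower in 4 of 9, against 49.2% of all probe sets, and ran from -0.19 ± 0.21 in Tpx2 to 0.12 ± 0.15 in Aurka with a median of 0.02 (-0.02 to 0.05 with 1 array left out). The 95% confidence interval for Tpx2 ran from -0.65 to 0.26. Against the wild-type arrays of the second run alone the median was -0.03.

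Compared directly, SMGA/EGFP was lower than SMAA/EYFP in 9 of 9 members, against 53.9% of all probe sets, with differences from -0.32 ± 0.24 in Tpx2 to -0.0016 ± 0.18 in Aurka. None passed the threshold, which 0.0799% of all probe sets did, and 0 had an unadjusted p under 0.05, beside 9.31%. The median of -0.19 became -0.47 without SMGA/EGFP 3, -0.06 without SMGA/EGFP 1 and 0.0020 without SMGA/EGFP 2. With the record-number run added as a block it was -0.07, and with array weights 0.10. This comparison shares its SMGA/EGFP arrays with the one against wild type.

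With both transgenic groups set against wild type together, 0 of 9 members passed, where 0.00444% of all probe sets did, and 0 had an unadjusted p under 0.05, beside 4.18%. Of the 9, 7 were lower, against 52.2% of all probe sets, with a median of -0.11. That median was -0.30 without SMGA/EGFP 3, -0.0065 without SMGA/EGFP 1 and -0.0086 without SMGA/EGFP 2, and it turned to 0.09 with array weights. By group mean, 4 members (Tpx2, Racgap1, Mki67 and Ccnb2) were ordered SMGA/EGFP, SMAA/EYFP, wild type from low to high. Another 4 (Top2a, Cdk1, Bub1 and Aurkb) ran SMGA/EGFP, wild type, SMAA/EYFP, and Aurka was lowest in wild type. No neighbours in these orders differed past the adjusted threshold.

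Wild-type bladders also differed among themselves by run of record numbers, without passing the test. Wild type 1 to 3 were lower than wild type 4 to 6 in 9 of 9 members, against 54.4% of all probe sets, with a median of -0.11. That median was -0.19 without wild type 1 and -0.08 without wild type 6. Without wild type 6, only 6 of 9 members were lower. In 3 members, Tpx2, Racgap1 and Ccnb2, the 3 lower arrays did not overlap the 3 higher ones, beside 7.46% of all probe sets. The differences were -0.25 ± 0.24, -0.20 ± 0.16 and -0.30 ± 0.20, and 0 of 9 passed the limma test, as did 0.00% of all probe sets; 0 had an unadjusted p under 0.05, beside 8.15%. For Ccnb2 the spread within a run was 0.0060 in the first (SD, n = 3) and 0.036 in the second.

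**Figure D2:**
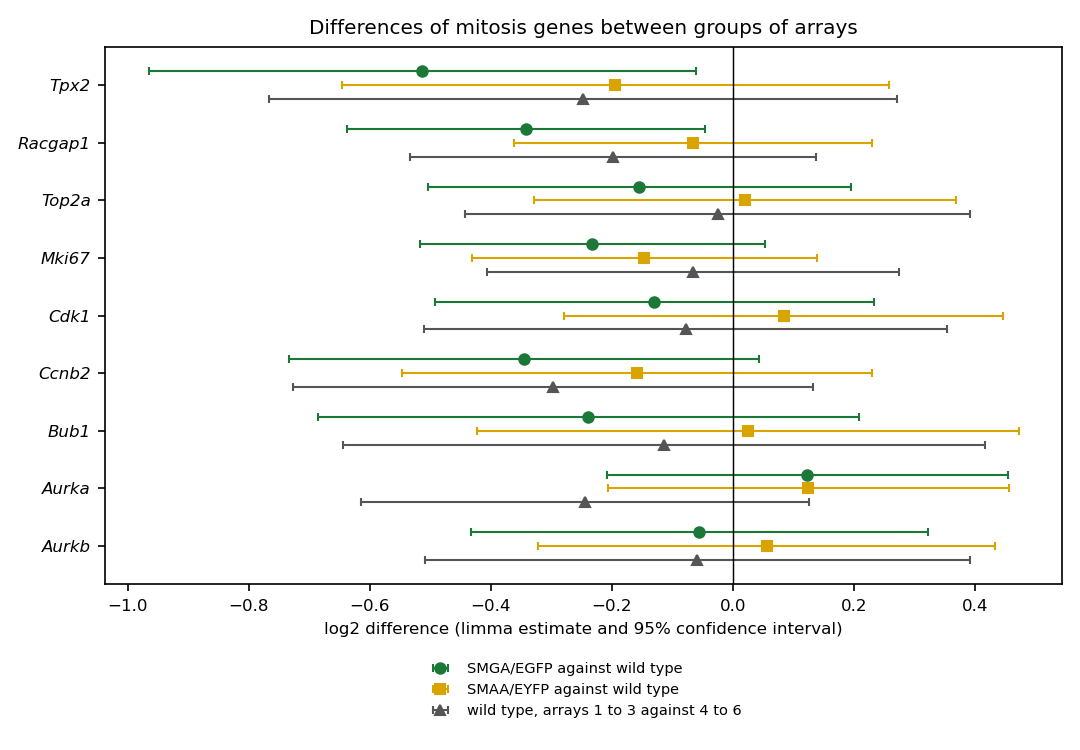
Log2 difference (x axis) of each member, as limma's estimate with its 95% confidence interval, for SMGA/EGFP against wild type (green circles), SMAA/EYFP against wild type (gold squares) and wild type 1 to 3 against wild type 4 to 6 (grey triangles). Intervals leave 0 outside only for Tpx2 and Racgap1 in SMGA/EGFP, before adjustment for the number of probe sets.

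Read array by array, the split within SMGA/EGFP was shared by the brightest probe sets of all members. SMGA/EGFP 1 and 2 lay below, and SMGA/EGFP 3 above, the mean of the 12 arrays in 9 of 9 members, against 11.3% of all tested probe sets. In 8 members SMGA/EGFP 1 and 2 lay below every wild-type array (5.11% of all), and in 7 SMGA/EGFP 3 lay above every one (12.5%). Both held in 6, namely Top2a, Mki67, Cdk1, Ccnb2, Bub1 and Aurkb, against 0.520% of all, or 117 probe sets. These counts use the brightest probe set of each gene, and the second tested probe sets of Top2a and Aurkb did not meet both. On the second tested Tpx2 probe set, SMGA/EGFP 3 read 9.72. That was below the probe set's mean of 9.81 over the 12 arrays and outside its 3 highest arrays. This pattern was noticed in these values and then counted, so the shares describe it and are no test. The 6 became 4 with arrays centred on their median in place of quantile normalization, and 8 without wild type 6.

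SMGA/EGFP 3 was the highest of the 12 arrays in 7 members, and wild type 6 in the other 2, Tpx2 and Racgap1. Wild type 6 stood among the 3 highest in 9 of 9 members, against 26.3% of all probe sets, and SMGA/EGFP 3 in 9 of 9, against 22.4%. SMGA/EGFP 2 was the lowest array in 6 members, SMGA/EGFP 1 in 2 and wild type 2 in 1, Aurka. The SD over arrays was larger in SMGA/EGFP than in both other groups in 9 of 9 members, against 44.1% of all probe sets. It ran from 0.32 to 0.69 in SMGA/EGFP with a median of 0.47, where the median over all probe sets was 0.22, and from 0.04 to 0.17 in SMAA/EYFP with a median of 0.09, where it was 0.17. These SDs are of the brightest probe sets. On the second tested ones, SMGA/EGFP and wild type had 0.3532 and 0.3538 for Aurkb and 0.334 and 0.330 for Tpx2. For Racgap1 they had 0.51 and 0.26, and for Top2a 0.45 and 0.20.

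The mean deviation of the 9 members from their own means over 12 arrays gives each bladder a single value. It was -0.35, -0.50 and 0.40 in SMGA/EGFP, 0.07, -0.08, -0.03, 0.04, 0.09 and 0.26 in wild type, and 0.08, -0.04 and 0.05 in SMAA/EYFP. SMGA/EGFP thus holds both the lowest and the highest bladder of the study for these genes. Over the 12 arrays the correlation of a member with the mean of the others ran from 0.67 in Aurka to 0.94 in Top2a, as a description of arrays that share their normalization.

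The genes most like the members were other genes of mitosis. Of the 11721 genes compared, the 10 with the highest correlation with the members' mean over 12 arrays were Cdca8, Spc25, Cenpf, Sgo1, Prc1, Hmmr, Birc5, Spag5, Cdc20 and Cenpe, from 0.98 down to 0.95. All 10 stand on a list of 78 other mitosis genes, of which 74 were among the genes compared, or 0.631% of them. They include Cdca8 and Birc5, which join Aurora B in the chromosomal passenger complex, Spc25, Cenpf and Cenpe of the kinetochore, and Cdc20, which activates the anaphase-promoting complex. Of the 30 most like genes 23 were on that list, and of the 100 most like, 40. From a list of 40 genes of replication licensing and S phase, 0 were among the 100. Only 37 of that list were tested, so few would fall among the 100 in any case, and this count does not set them apart.

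**Figure D3:**
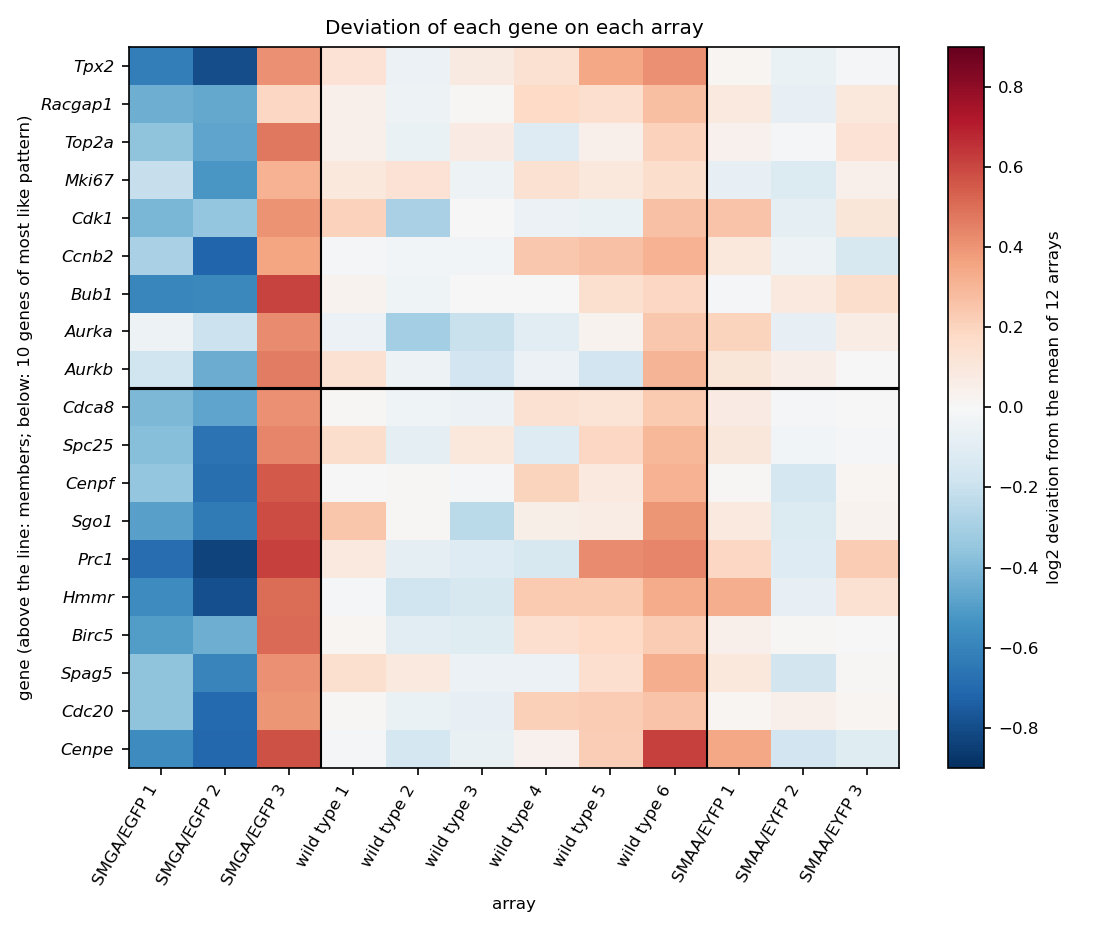
Deviation of each gene from its mean over 12 arrays (colour, log2 units, red above and blue below) on each array (columns, ordered by group), for the 9 members (above the line) and the 10 genes of most like pattern (below it). SMGA/EGFP 1 and 2 are blue and SMGA/EGFP 3 and wild type 6 are red in all rows; the lower rows were chosen for this likeness.

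Counted over the list of other mitosis genes, SMGA/EGFP against wild type gave 62 of 74 lower and 12 higher, with a median of -0.20 and 0 past the limma test. The median was -0.44 without SMGA/EGFP 3, -0.09 without SMGA/EGFP 1 and -0.08 without SMGA/EGFP 2, and it turned to 0.02 with array weights. At an unadjusted p under 0.05 there were 4 of 74, all lower, near the 4.16% of all probe sets that were lower at that level: Kif22, a chromosome-arm motor, at -0.44 ± 0.14, Smc4 of condensin at -0.26 ± 0.12, Ckap2 at -0.44 ± 0.20 and Cdkn3 at -0.43 ± 0.20. The array pattern of the members, with SMGA/EGFP 1 and 2 below and SMGA/EGFP 3 above every wild-type array, was met by 23 of the 74, against 0.520% of all probe sets. SMAA/EYFP against wild type gave 33 lower and 41 higher with a median of 0.01 (-0.04 to 0.03 with 1 array left out), where Ncapd2, another condensin subunit, had 0.44 ± 0.15 and Fzr1, which activates the anaphase-promoting complex late in mitosis, -0.33 ± 0.15. Wild type 1 to 3 against 4 to 6 gave 62 of 74 lower, with a median of -0.19 and the lowest p for the kinesin Kifc1, at -0.62 ± 0.20. SMGA/EGFP against SMAA/EYFP gave 60 of 74 lower with a median of -0.18. It was -0.46 without SMGA/EGFP 3, -0.06 without SMGA/EGFP 1, -0.09 without SMGA/EGFP 2 and 0.06 with array weights.

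For genes of S phase SMGA/EGFP 1 was low, while SMGA/EGFP 2 and 3 did not stand apart as they did for the mitosis genes. The mean deviation of the 37 tested genes of that list was -0.59, 0.03 and 0.05 in SMGA/EGFP 1, 2 and 3, so SMGA/EGFP 2, the lowest bladder for the mitosis genes, was near the middle for S phase. SMGA/EGFP 1 and 2 lay below, and SMGA/EGFP 3 above, the mean of the 12 arrays in 13 of the 37, against 11.3% of all probe sets, and the SD was largest in SMGA/EGFP in 31, against 44.1%. SMGA/EGFP 1 lay below every wild-type array in 29 of the 37, against 24.0% of all probe sets, and SMGA/EGFP 2 in 1, against 18.1%. SMGA/EGFP 3 was among the 3 highest arrays in 9 of the 37, near the 22.4% of all probe sets, and wild type 6 in 3, against 26.3%. The stricter pattern, set by every wild-type array, was met by 0 of the 37, where 0.520% of all probe sets met it, so that count does not set these genes apart. SMGA/EGFP against wild type gave 30 of 37 lower with a median of -0.12, and 0 passed the limma test. A single array sets that sign: the median was 0.08 without SMGA/EGFP 1, -0.25 without SMGA/EGFP 2 and -0.20 without SMGA/EGFP 3.

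**Figure D4:**
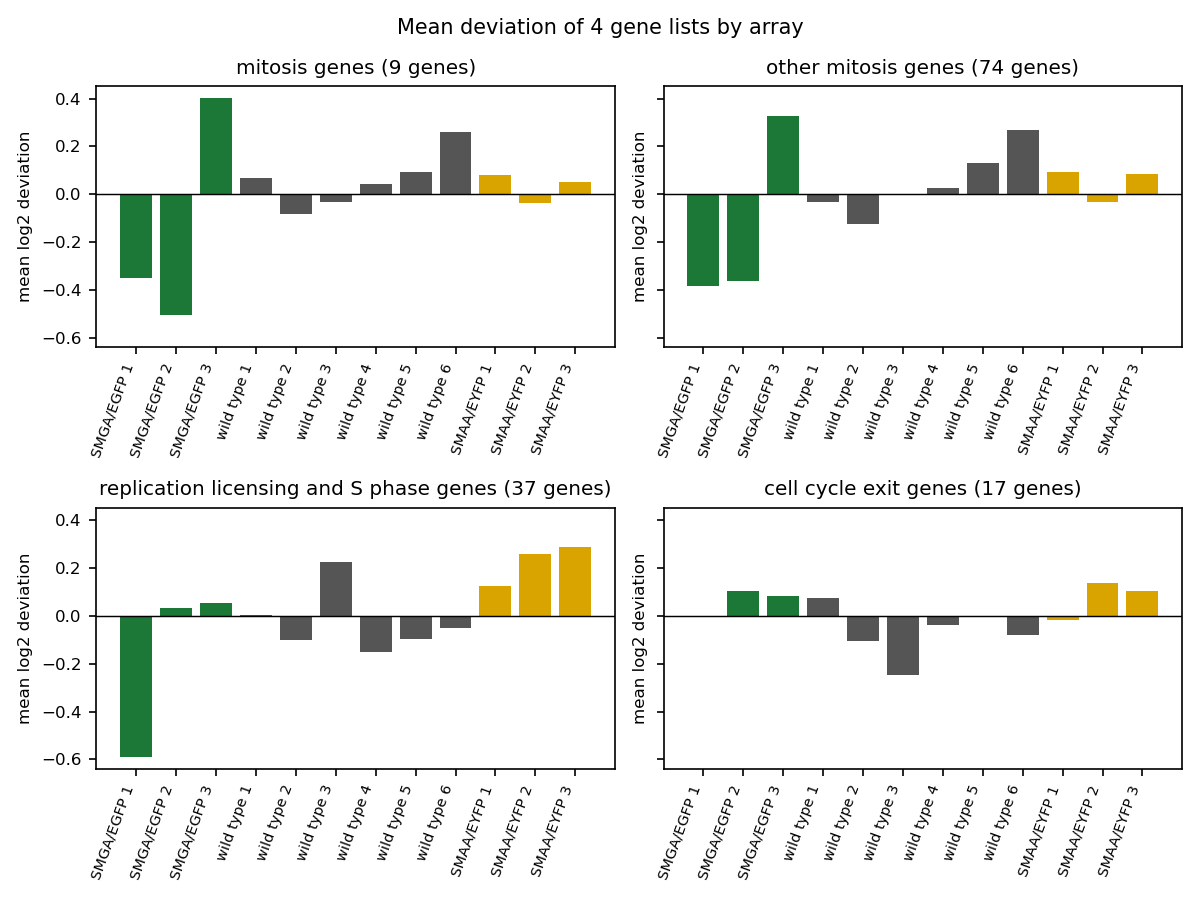
Mean log2 deviation (y axis) from each gene's mean over 12 arrays, for the 9 members, 74 other mitosis genes, 37 genes of replication licensing and S phase and 17 of cell cycle exit, on each array (x axis; green SMGA/EGFP, grey wild type, gold SMAA/EYFP). The members are at -0.35, -0.50 and 0.40 in SMGA/EGFP, and the S phase genes at -0.59, 0.03 and 0.05.

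Other cell types of the bladder wall were compared over the same arrays. The mean deviation of skeletal muscle markers split the SMGA/EGFP arrays in the opposite direction, at 1.06, 0.90 and -0.50 over the 7 of 10 tested markers. These markers did not move together: against wild type, 3 were higher in SMGA/EGFP and 4 lower, with a median of -0.04. Mylpf had 2.24 ± 1.33 and Myh3 2.08 ± 1.43, while Tnnt3 had -0.37 ± 0.18 and Ckm -0.21 ± 0.22, so the mean is a poor measure of skeletal muscle. Wild type 2, where the members stood at -0.08, had the highest skeletal muscle value, 1.44. Summed intensity of the 10 markers was 93782, 77304 and 74741 on SMGA/EGFP 1, 2 and 3, so arrays 2 and 3 lay close by this measure. It was 72115 to 85077 in SMAA/EYFP and 75055 to 99543 in wild type. The part of these markers in the mitosis values was not tested. Mesothelial markers were low on SMGA/EGFP 1, 2 and 3 alike, at -1.40, -1.45 and -1.15, so they did not follow the split. Of the 6, 3 passed the limma test as lower than wild type, where 0.0622% of all probe sets passed in either direction. Wild type 1 to 3, in the run of SMGA/EGFP, were also lower than wild type 4 to 6 in 6 of 6, against 54.4% of all probe sets. The median of that difference was -0.79, with 0 past the test. By array, wild type 1 to 3 stood at -0.14, -0.13 and 0.04, and wild type 4 to 6 at 0.67, 0.75 and 0.38.

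The other marker lists did not divide the SMGA/EGFP arrays in this way. Smooth muscle markers stood at 0.11, -0.09 and -0.08 on SMGA/EGFP 1, 2 and 3, urothelium at -0.17, 0.16 and 0.17, and fibroblasts and matrix at 0.08, -0.09 and -0.11. Endothelium was at 0.07, -0.47 and -0.18, leukocytes at 0.12, -0.19 and -0.47, and neurons and Schwann cells at 0.49, 1.02 and 0.41. The 2 tested erythroid markers were at 0.64, -0.05 and -0.24. They went opposite ways against wild type, Alas2 at -0.52 ± 0.42 and Tfrc at 0.65 ± 0.19, so their mean is a poor measure of erythroid cells. None of these lists put both SMGA/EGFP 1 and 2 on 1 side and SMGA/EGFP 3 on the other side of 0. Gapdh control probe sets lie at the 3-prime and 5-prime end of the transcript, and their log2 ratio reports RNA quality. It was 0.15, 0.14 and 0.08 on SMGA/EGFP 1, 2 and 3 and -0.06 to 0.25 over all 12 arrays. The same ratio for Actb was 0.74, 0.85 and 0.64 on SMGA/EGFP 1, 2 and 3 and 0.58 to 0.97 over all 12. Both ratios were thus lower on SMGA/EGFP 3 than on SMGA/EGFP 1 and 2, and their part in the mitosis values was not tested. Median intensity was 306, 251 and 249.6 on SMGA/EGFP 1, 2 and 3.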

How the data were processed

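Linear intensity per probe set, 1 value per array, was deposited by the authors; per the submitters' processing notes it was made with GCOS, and the algorithm, detection calls and annotation behind it are not given in the sources used here. The labels' protocols name RNeasy total RNA, 1 round of amplification and biotin labelling. The 64 control probe sets were left out, values were turned into log2(intensity + 16) and quantile-normalized, and the 22518 probe sets with a mean above the median of all means (8.02) were tested. Symbols are those of the platform annotation, and RefSeq promoters were scanned for spelled-out letters on both strands.

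limma 3.58.1 in R 4.3.3 (lmFit, eBayes with an intensity trend, two-sided, Benjamini-Hochberg threshold 0.05) was fitted to all 12 arrays in their 3 groups, with wild type split in 2 for the comparison of record numbers; the fit was tested on simulated data. The arrays, 3, 3 and 6 a group, limit the precision.

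The members and all gene lists were chosen with earlier results of these data known. Every member was named; of each other list, counts, the median and up to 4 genes of smallest p; and the 10 genes most correlated with the members' mean. The pattern by array was counted after it was seen. Alternatives were the scaling, pseudocounts of 1 and 64, filters, the mean of a gene's probe sets, other variance settings, array weights, either record-number run as a block or alone, and leaving out each array.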

Additional observations from a re-analysis of the deposited data

Results flagged for a closer look

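In Mki67, wild type 3 stood apart from the other wild-type arrays, at 13.32 where they read 13.45 to 13.52. Its gap to the nearest of them was 0.684 of the whole range of the 6 arrays, above Dixon's 95% critical value of 0.625. It was 1 of 9 members checked in the wild-type group, and chance marks about 1 in 20.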

How the results depend on the processing

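No member passed the limma test under any alternative except Tpx2 in SMGA/EGFP against wild type without SMGA/EGFP 3 (-0.89 ± 0.14, adjusted p = 0.0404), so members past the threshold in that comparison ranged from 0 to 1 over the fits that leave out 1 array. With array weights (0.39, 0.62 and 2.10 on SMGA/EGFP 1, 2 and 3) the members' median became 0.13 in SMGA/EGFP against wild type, with 3 of 9 lower, and 0.10 against SMAA/EYFP, with 1 of 9 lower, and 4 of 9 were lower in both transgenic groups against wild type. Leaving out 1 array moved the median from -0.46 to -0.04 against wild type and from -0.47 to 0.0020 against SMAA/EYFP, where 4 of 9 were lower without SMGA/EGFP 2. The median stayed below 0 in the wild-type comparison of record numbers, from -0.19 to -0.08. With arrays centred on their median, the median of all probe sets shifted to -0.12 in SMGA/EGFP against SMAA/EYFP, beside -0.32 for the members. A filter at the 75th percentile left 7 of the 9 members.

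Probe sets past the threshold numbered 14 in SMGA/EGFP against wild type, 0 in SMAA/EYFP against wild type, 18 in SMGA/EGFP against SMAA/EYFP, 1 in both against wild type and 0 between wild-type runs. The first became 5 with the filter at the 75th percentile, 9 with only the arrays compared, 1 within the same run, and 6 to 20 with 1 array left out. The second became 5 with median centring and 5 with array weights. The third became 10 with the filter at the 75th percentile, 2 with the run as a block, and 4 to 22 with 1 array left out. The fourth became 0 with median centring and 3 with array weights. The last became 1 without a filter, 1 with the filter at the 25th percentile, 175 with array weights, and 0 to 430 with 1 array left out, the highest without wild type 3. The cause was not tested. No paired analysis was possible because the labels give no replicate numbers and the numbers used here follow the order of the records.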

Other observations

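Genes of replication licensing and S phase mostly had higher estimates in SMAA/EYFP. Of the 37 tested, 35 had a higher estimate than wild type, with a median of 0.25, and 0 passed the limma test; 4 had an unadjusted p under 0.05, all higher, beside 2.67% of all probe sets that were higher at that level. Among them Cdc6, which loads the replicative helicase at origins, had 0.88 ± 0.28, and Mcm10, a replication initiation factor, 0.63 ± 0.19. Set against SMAA/EYFP, SMGA/EGFP had a lower estimate in 36 of the 37, with a median of -0.37, and 16 had an unadjusted p under 0.05, all lower, beside 5.12% of all probe sets, with Cdc6 at -1.24 ± 0.32. That median was -0.16 without SMGA/EGFP 1. Wild type 1 to 3 against 4 to 6 gave 30 of 37 higher, with a median of 0.13, which was 0.07 without wild type 3 and 0.21 without wild type 2.

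Of 17 tested genes of cell cycle exit, SMGA/EGFP had a higher estimate than wild type in 14 (median 0.16), and 0 passed the limma test. At an unadjusted p under 0.05 there were 4, beside 6.92% of all probe sets. Cdkn1a, which encodes the Cdk inhibitor p21, had 0.49 ± 0.18, Btg2, an antiproliferative gene, 0.44 ± 0.18, and Ccng2, an unconventional cyclin of resting cells, 0.53 ± 0.23, while the Cdk inhibitor Cdkn2c had -0.32 ± 0.14. Wild type 1 to 3 and 4 to 6 also differed in Cdkn1a, by 0.48 ± 0.17 and without passing the test, and the SMGA/EGFP mean of 12.23 was closer to the 11.98 of wild type 1 to 3, its own run of record numbers, than to the 11.50 of the others. In SMAA/EYFP the Cdk inhibitor Cdkn1b had a difference of 1.35 ± 0.21 from wild type and did not pass (limma, adjusted p = 0.138). Its mean was 10.88 in SMAA/EYFP, 9.76 in wild type 4 to 6, which share that run of record numbers, and 9.29 in wild type 1 to 3. By array the exit genes stood at -0.0061, 0.10 and 0.08 in SMGA/EGFP 1, 2 and 3 and did not divide them as the mitosis genes did.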
